A study of Mus musculus with 27 samples.

Results

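Control embryoid bodies of mouse embryonic stem cells were compared between day 8 and day 6 of differentiation, on 2 arrays of each day out of the 27 arrays of the series. The 4 arrays were chosen by their titles, which name the luciferase hairpin and the day. Every cell of the series is of the AB2.2 line and carries a lentivirus that makes a short hairpin RNA (shRNA) and enhanced green fluorescent protein, on which the cells were sorted. In the control arm the hairpin targets luciferase, which the mouse genome lacks, and in the other arm it targets Sox17, an endoderm transcription factor. Bodies were formed in hanging drops and plated at day 4.5, so days 6 and 8 both follow plating. The labels call the 2 arrays of a group biological replicates, and the series by its title concerns Hhex and Cer1 in the route from Sox17 to cardiac mesoderm.

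In embryoid bodies, cells that pass through a state like the primitive streak form mesoderm, and part of it becomes beating heart muscle. The contractile unit of that muscle, the sarcomere, slides thick filaments of myosin along thin filaments of actin, troponin and tropomyosin, which are anchored at the Z-disc, while the M-band holds the thick filaments in register. Another part of the mesoderm becomes mesenchyme, which secretes fibrillar collagens, and the endoderm-like cells of the bodies lay down basement membrane. RNA of whole cultures was measured, so a larger share of cells of a type and more RNA per cell cannot be told apart.

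Levels are deposited log2 values of Affymetrix probe sets, on which 1 unit is a 2-fold difference, and array medians lay between 5.50 and 5.56. The 2 arrays of a day correlated with r = 0.9953 at day 6 and 0.9974 at day 8 over the 13297 genes tested, and arrays of different days with r between 0.9745 and 0.9794. The difference between 3' and 5' probe sets of actin, a sign of RNA integrity, was 0.412 to 0.533 on the 4 arrays. The hybridisation control bioB, a bacterial transcript spiked into each sample, read 7.13 on day 6 replicate 1 and 6.56 to 6.64 on the other 3 arrays. On the control day 0 arrays, used for comparison below, bioB read 9.03 and 9.10. The 3' probe set of 18S ribosomal RNA read 9.11 and 10.84 there, against 6.36 to 6.48 on the 4 arrays. The part of these shifts in differences from day 0 was not tested. Pou5f1, the pluripotency factor Oct4, had fallen from a mean of 12.56 at day 0 to 7.51 and 7.82 at day 6, and read 7.86 and 6.46 at day 8. Tnnt2, cardiac troponin T, had a mean of 3.73 at day 0 and reached 10.98 and 11.05 on the day 6 arrays, which puts heart muscle transcripts in the bodies before the interval began.

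From day 6 to day 8, 751 genes were higher and 356 were lower, which is 5.65% and 2.68% of the genes tested. Every list count for this interval below is to be read beside these shares over all genes. A gene was called at a limma p adjusted by Benjamini-Hochberg below 0.05, with the spread estimated from all 27 arrays. At least 2-fold changes numbered 240 higher and 37 lower, the median change over all genes was -0.02, and 3206 genes had an unadjusted p under 0.05. Arrays were also centred on their medians over the genes tested, which are not the medians over all probe sets given above. The split then turned to 567 higher and 753 lower, so that 42.95% of the calls were higher in place of 67.84%. The median change over all genes moved to -0.11. Leaving out 1 array reduced the calls to 472 without day 6 replicate 1, 337 without day 6 replicate 2, 472 without day 8 replicate 1 and 262 without day 8 replicate 2. Levels under 5.53, the median of all values, came with no detection call, so folds of genes that low at day 6 are ratios of RMA values and need not measure the ratio of RNA. Called genes named here that were under 5.53 on both day 6 arrays include Actg2, Cacna1h, Cpt1a, Dkk2, Igfbp1, Itgb3, Kcnj5, Lhx2, Nppa, Prrx1, Sema3d, Shisa3, Shox2, Slc8a1, Smpx, Tecrl, Tgfb3, Tnni3 and Zic1. Those under it on all 4 arrays include Col9a2, Corin, Pdk4, Ppbp, Trp63 and Wt1. The calls made with all arrays and without each of the 4 in turn numbered 232, of which 193 were higher and 39 lower.

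**Figure D1:**
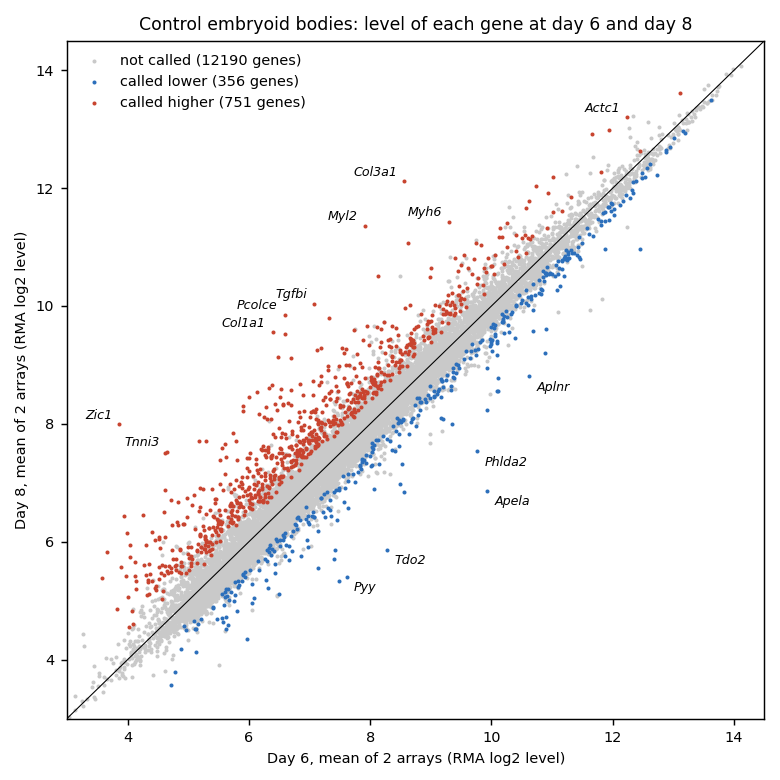
Level of each of the 13297 genes at day 6 (horizontal axis) against day 8 (vertical axis), each the mean of 2 control arrays in RMA log2 units, with genes called higher in red and lower in blue and the line of equal levels in black. The 751 red points reach farther from the line, up to Zic1 and Col3a1, than most of the 356 blue points, of which Apela lies farthest.

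Of 10 measured thick filament genes, 7 were called higher and 0 lower, with a median change of 1.34 against -0.02 over all genes. Myl2, the regulatory light chain of ventricular myosin, read 7.80 and 8.02 on the day 6 arrays and 11.45 and 11.27 on those of day 8, a 10.9-fold rise (SE 0.48 on the log2 scale, adjusted p = 0.000159). Myh6, the alpha heavy chain of cardiac myosin, read 9.39 and 9.22 and then 11.60 and 11.26, which is 4.37-fold (adjusted p = 1.16e-07). Both genes sat far below their day 8 values on each day 6 array. Mybpc3, the myosin binding protein that trims cross-bridge cycling, went from 7.99 and 7.90 to 9.75 and 9.59 (3.30-fold, adjusted p = 1.38e-07). Myl3, an essential light chain of ventricular myosin, went from 8.54 and 8.59 to 10.01 and 9.93 (2.65-fold, adjusted p = 0.0004). Myl7, the regulatory light chain of atrial myosin, read 12.31 and 12.50 and then 12.86 and 12.71 (difference 0.38, SE 0.37, adjusted p = 0.548), and was not called. Myh7, the beta heavy chain, read 10.30 and 10.28 and then 11.79 and 11.55, a difference of 1.38 whose SE of 0.53 left it at an adjusted p of 0.117. Mylk3, a cardiac myosin light chain kinase, and Myl4, an atrial essential light chain, differed by 1.30 and 0.99 (adjusted p = 0.0276 and 0.0133). Their calls were lost without any 1 of the 4 arrays (adjusted p 0.111 to 0.18 and 0.0565 to 0.114), a 2nd probe set of Myl4 differed by -0.25, and 4 of the list were called in each of those fits.

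Of 11 measured thin filament genes, 5 were called higher and 0 lower, with a median of 0.65. The largest difference was that of Tnni3, cardiac troponin I, the inhibitory troponin that replaces the slow skeletal form as heart muscle matures. It read 4.76 and 4.55 on the day 6 arrays and 7.68 and 7.38 on those of day 8, a 7.34-fold rise (SE 0.27, adjusted p = 2.2e-06) from a day 6 level under its day 0 mean of 5.71. Actc1, cardiac alpha actin, was already at 12.20 and 12.28 and reached 13.27 and 13.14 (1.95-fold, adjusted p = 0.00477). Nebl, the cardiac relative of nebulin, went from 8.38 and 8.26 to 9.52 and 9.38 (2.18-fold, adjusted p = 0.000523), while its 3 probe sets ranged from -0.39 to 1.36. Tnnt2 rose by 0.58 to 11.73 and 11.46 (adjusted p = 0.0347), and Tmod1, which caps the pointed ends of thin filaments, by 0.87 (adjusted p = 0.0384). Tpm1, alpha tropomyosin, read 12.23 and 12.33 and then 12.82 and 12.92 without passing the threshold (adjusted p = 0.0946). Acta1, skeletal alpha actin, differed by 0.24 with an SE of 0.65. The calls on Tnnt2 and Tmod1 were lost without any 1 of the 4 arrays (adjusted p 0.0832 to 0.265 and 0.062 to 0.308) and that on Actc1 without day 8 replicate 1 (0.0537), so that 2 to 3 members stayed called.

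Of 20 Z-disc and M-band genes measured, 12 were called higher and 0 lower, with a median of 0.81. Ankrd1, an ankyrin repeat protein that binds titin, went from 7.37 and 7.28 to 9.91 and 9.67 (5.53-fold, adjusted p = 3.18e-05). Actn2, the alpha actinin that cross-links actin at the Z-disc, rose from 5.89 and 5.92 to 8.39 and 8.23 (5.30-fold, adjusted p = 4.67e-07). Csrp3, the muscle LIM protein, went from 6.97 and 7.27 to 9.35 and 9.14, which is 4.38-fold. Smpx, a small protein of muscle, went from 4.77 and 4.67 to 6.81 and 6.61 (3.97-fold), and Myom1, the M-band protein myomesin, from 6.45 and 6.58 to 8.58 and 8.32 (3.82-fold). Each of these 5 genes was called without any 1 of the 4 arrays. Fhl2 and Unc45b, at 8.44 to 8.56 and 8.49 to 8.84 on the 4 arrays, overlapped between the days. Without 1 array, 8 to 9 members were called.

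**Figure D2:**
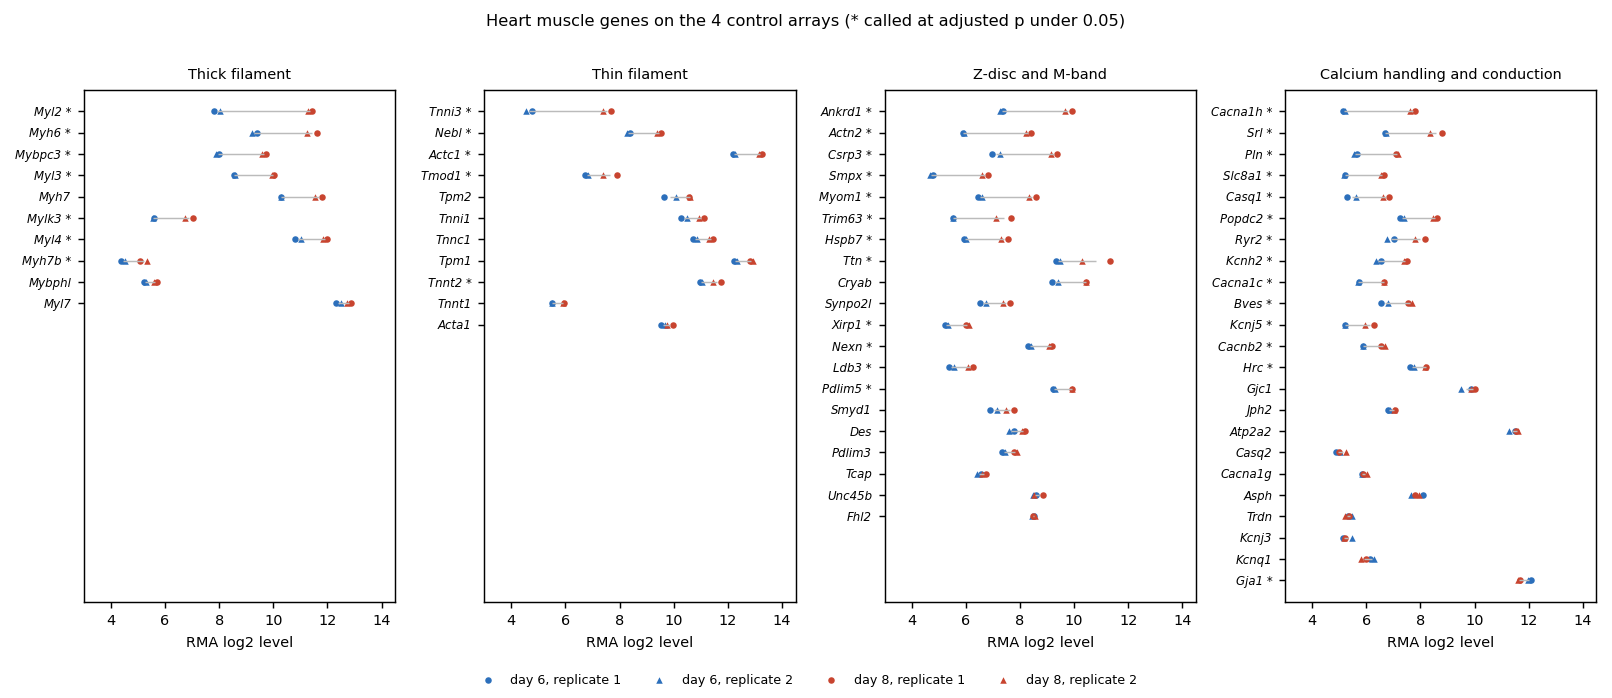
RMA log2 levels (horizontal axis) of every measured member of 4 heart muscle lists on the 4 control arrays, with day 6 in blue, day 8 in red, circles for replicate 1, triangles for replicate 2, a grey line between the means of the days and an asterisk on called genes. The red means of Myl2, Tnni3, Ankrd1 and Cacna1h lie over 2 units to the right of the blue ones, whereas the means of Myl7, Acta1, Fhl2 and Asph differ by under 0.5.

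The 200 bases before the transcription start of contractile genes called higher (thick filament, thin filament, Z-disc and M-band) were read from the RefSeq promoter table of GRCm38.p6, which held 22 of these 24 genes. They were searched on both strands for a CArG box, the element bound by serum response factor, for CATTCC, the core of the element bound by TEAD factors, for AGATAA, a form of the element bound by GATA factors, for a MEF2 site and for TATAAA, and the last pair can share letters. A CArG box stood in 5 of the 22 genes (22.73%), compared with 1.13% of the 10674 genes tested that have a promoter in the table and 3.35% of all genes called higher. AGATAA stood in 7 (31.82% against 5.32%) and CATTCC in 6 (27.27% against 10.18%). MEF2 sites were in 2 (9.09% against 1.38%) and TATAAA in 2 (9.09% against 6.23%). A gene counted if any of its listed promoters held the motif, so genes with several promoters had more chances, and a match is a description of letters and not a binding site. The 5 promoters with a CArG box are shown, to let the element be read in place (Nebl has 4 promoters in the table and Ldb3 2), followed by that of Tnni3, the gene with the largest rise among those with a single promoter in the table, which held 0 of the motifs. Capitals mark the motifs found, which are a CArG box in each of the 5, AGATAA read on the opposite strand in Myom1, and CATTCC once on each strand in Myl3. They lie at chr17:71019357-71019556 on the plus strand (Myom1), chr9:110763478-110763677 on the plus strand (Myl3), chr2:17462857-17463056 on the minus strand (Nebl), chr2:114052876-114053075 on the minus strand (Actc1), chr14:34588682-34588881 on the minus strand (Ldb3, a PDZ and LIM protein of the Z-disc, named for its motif after the values were seen) and chr7:4522529-4522728 on the minus strand (Tnni3).
Myom1: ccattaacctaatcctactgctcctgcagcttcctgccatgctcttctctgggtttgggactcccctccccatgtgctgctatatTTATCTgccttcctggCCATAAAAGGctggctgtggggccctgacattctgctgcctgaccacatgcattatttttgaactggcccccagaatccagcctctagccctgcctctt
Myl3: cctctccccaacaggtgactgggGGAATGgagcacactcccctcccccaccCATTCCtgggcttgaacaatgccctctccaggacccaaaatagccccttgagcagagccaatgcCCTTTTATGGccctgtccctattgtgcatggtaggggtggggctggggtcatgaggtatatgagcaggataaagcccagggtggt
Nebl: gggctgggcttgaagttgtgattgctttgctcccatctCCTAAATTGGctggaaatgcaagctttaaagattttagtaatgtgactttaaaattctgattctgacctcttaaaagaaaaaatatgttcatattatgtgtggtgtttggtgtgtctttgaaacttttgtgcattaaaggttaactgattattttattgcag
Actc1: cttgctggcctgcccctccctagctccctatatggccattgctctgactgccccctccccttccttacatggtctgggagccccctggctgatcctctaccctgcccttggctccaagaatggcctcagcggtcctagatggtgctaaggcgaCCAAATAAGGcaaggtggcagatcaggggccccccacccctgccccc
Ldb3: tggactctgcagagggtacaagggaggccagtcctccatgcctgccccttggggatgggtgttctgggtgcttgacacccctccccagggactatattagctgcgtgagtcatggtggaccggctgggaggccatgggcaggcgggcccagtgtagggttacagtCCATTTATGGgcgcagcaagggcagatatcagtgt
Tnni3: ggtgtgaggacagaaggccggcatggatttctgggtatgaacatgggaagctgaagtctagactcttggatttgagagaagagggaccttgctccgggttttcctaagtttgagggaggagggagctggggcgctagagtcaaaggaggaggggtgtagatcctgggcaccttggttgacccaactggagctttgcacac
The CArG box begins 99 bases before the start in Myom1, 85 in Myl3, 47 in Actc1, 35 in Ldb3 and 162 in Nebl.

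Of 23 measured genes of calcium handling and conduction, which couple excitation to contraction, 13 were called higher and 1 lower, with a median of 0.75. Cacna1h, a T-type calcium channel, read 5.14 and 5.20 on the day 6 arrays and 7.80 and 7.62 on those of day 8 (5.81-fold, adjusted p = 1.07e-07). Srl, which encodes the sarcoplasmic reticulum protein sarcalumenin, went from 6.69 and 6.71 to 8.80 and 8.35 (3.67-fold, adjusted p = 3.77e-07). Pln, phospholamban, the brake on the reticulum's calcium pump, went from 5.65 and 5.55 to 7.10 and 7.18, or 2.92-fold. Slc8a1, the sodium-calcium exchanger, rose 2.64-fold to 6.64 and 6.55, and Casq1, a calcium-storing calsequestrin, 2.40-fold to 6.84 and 6.60. Casq2, the other calsequestrin of the list, read 4.86 and 5.03 and then 4.98 and 5.26 and was not called (adjusted p = 0.474). The pump itself, Atp2a2, was high on both days, at 11.49 and 11.27 and then 11.54 and 11.61 (adjusted p = 0.445), although its 5 probe sets ranged from -0.01 to 1.25. Gja1, the gap junction protein connexin 43, was the member called lower, at 12.09 and 11.96 and then 11.69 and 11.60. Its 6 probe sets ranged from -0.56 to 0.11. That call was lost without any 1 of the 4 arrays (adjusted p 0.084 to 0.255), whereas 9 to 10 members stayed called higher.

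Among heart hormones and energy transfer genes, 4 of 13 measured were called higher. Nppa, the atrial natriuretic peptide, went from 4.59 and 4.86 to 6.23 and 6.35 (2.96-fold, adjusted p = 2.52e-05). Corin, the protease that activates that peptide, went from 4.34 and 3.94 to 5.33 and 5.35 (2.30-fold, adjusted p = 5.53e-05). Ckb, brain-type creatine kinase, went from 7.74 and 7.72 to 9.63 and 9.57 (3.64-fold, adjusted p = 4.6e-05). These 3 were called without any 1 of the 4 arrays. Cox6a2, the muscle form of a cytochrome oxidase subunit, rose by 0.67, with a call lost in each of those fits (adjusted p 0.0841 to 0.208).

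Of 20 measured transcription factors that specify heart muscle, 2 were called higher and 0 lower, beside 5.65% and 2.68% over all genes. The median change was -0.11. Shox2, a factor of the sinus node and venous pole, rose from 4.33 and 4.26 to 5.98 and 5.92 (3.15-fold, adjusted p = 9.11e-08). Mef2a, with 5 probe sets from 0.11 to 1.09, rose by 0.50 (adjusted p = 0.00891), a call lost without day 6 replicate 2 (0.128) and without day 8 replicate 2 (0.148). Gata6 read 10.08 and 9.34 on the day 6 arrays and 9.54 and 9.83 on those of day 8, and Hand2 read 9.94 and 10.01 and then 9.77 and 9.61. Tbx20, at 9.52 and 9.28 and then 9.25 and 9.10, was likewise high on both days. Gata6, Hand2 and Tbx20 had the smallest differences of the well-expressed members, and each had probe sets of both signs. Of the 20 genes, 8 differed in the positive direction. Hey2, Isl1 and Mef2c differed by -1.03, -0.80 and -0.70 and were not called (adjusted p 0.107 to 0.273). In the positive direction, Tbx2, Irx4, Gata4 and Nkx2-5 differed by 0.77, 0.64, 0.55 and 0.50 and were not called either (adjusted p 0.18 to 0.285). Tbx5 differed by -0.22 (adjusted p = 0.448). The 5 probe sets of Mef2c ranged from -0.74 to 0.09.

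Fibrillar collagens and other proteins of the interstitial matrix formed the other large group of rises, with 18 of 32 measured called higher, 0 lower and a median of 0.90. Col3a1, the chain of type III collagen, went from 8.30 and 8.82 to 12.00 and 12.23, an 11.7-fold rise (SE 0.33, adjusted p = 2.2e-06). Col1a1, a chain of type I collagen, read 6.46 and 6.33 and then 9.42 and 9.68 (8.92-fold, adjusted p = 3.93e-07), while its other probe set differed by 1.46. Col11a1, a chain of the minor type XI collagen, went from 6.15 and 5.64 to 8.18 and 8.24 (4.98-fold, adjusted p = 1.01e-05). The days were far apart in all 3. Postn, periostin, a matricellular protein of valves and fibroblasts, went from 8.18 and 9.08 to 10.94 and 11.19 (5.41-fold, adjusted p = 0.00763). Thbs1, thrombospondin 1, rose 5.17-fold (adjusted p = 0.00676). Postn lost its call without day 6 replicate 1 (0.105) and day 8 replicate 2 (0.0917), and Thbs1 without both day 6 arrays in turn (0.0551 and 0.0549) and day 8 replicate 2 (0.0838). Fn1, fibronectin, and Vcan, the proteoglycan versican, were already high and close between days, at 12.29 to 12.51 and 11.33 to 11.44 on the 4 arrays, although a 2nd probe set of Fn1 differed by -0.36. Without 1 array, 11 to 17 members were called higher.

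Of 20 enzymes that process matrix, 10 were called higher and 0 lower, with a median of 0.81. Pcolce, the enhancer of the protease that trims procollagen, read 6.42 and 6.76 on the day 6 arrays and 9.80 and 9.91 on those of day 8 (9.62-fold, adjusted p = 9.11e-08). Loxl1, a lysyl oxidase that cross-links elastin, went from 6.59 and 6.70 to 8.21 and 8.51 (3.27-fold, adjusted p = 0.000523), while its other probe set differed by 0.08. P4ha2, a subunit of the prolyl hydroxylase of collagen, went from 8.67 and 8.05 to 9.37 and 9.95 (2.46-fold, adjusted p = 0.000283). Serpinh1, the collagen chaperone, read 11.77 and 11.48 and then 12.16 and 12.36 and missed the threshold (adjusted p = 0.0618). The list held 3 to 9 calls without 1 array, the fewest without day 8 replicate 2.

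Of 20 measured genes of basement membrane, which parietal endoderm makes in quantity, 5 were called higher and 0 lower, with a median of 0.62. Col4a1 and Col4a2, the common chains of type IV collagen, read 12.16 and 11.70 and 11.00 and 10.46 at day 6, and 12.84 and 13.15 and 11.75 and 12.33 at day 8. Lamc1, the laminin gamma 1 chain, read 10.47 and 9.78 and then 10.86 and 11.49 (2.07-fold, adjusted p = 0.0038). In these 3 genes the replicates of each day lay apart, with day 6 replicate 2 lowest and day 8 replicate 2 highest. The calls on Col4a1 and Col4a2 (adjusted p = 0.0476 and 0.0352) were lost without any 1 of the 4 arrays (0.0854 to 0.328 and 0.0629 to 0.328). That on Lamc1 was lost without replicate 2 of either day (0.103 and 0.116), and the list held 0 to 5 calls across those fits. Hspg2, perlecan, read 9.53 to 9.68, while its other probe set differed by 1.01.

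**Figure D3:**
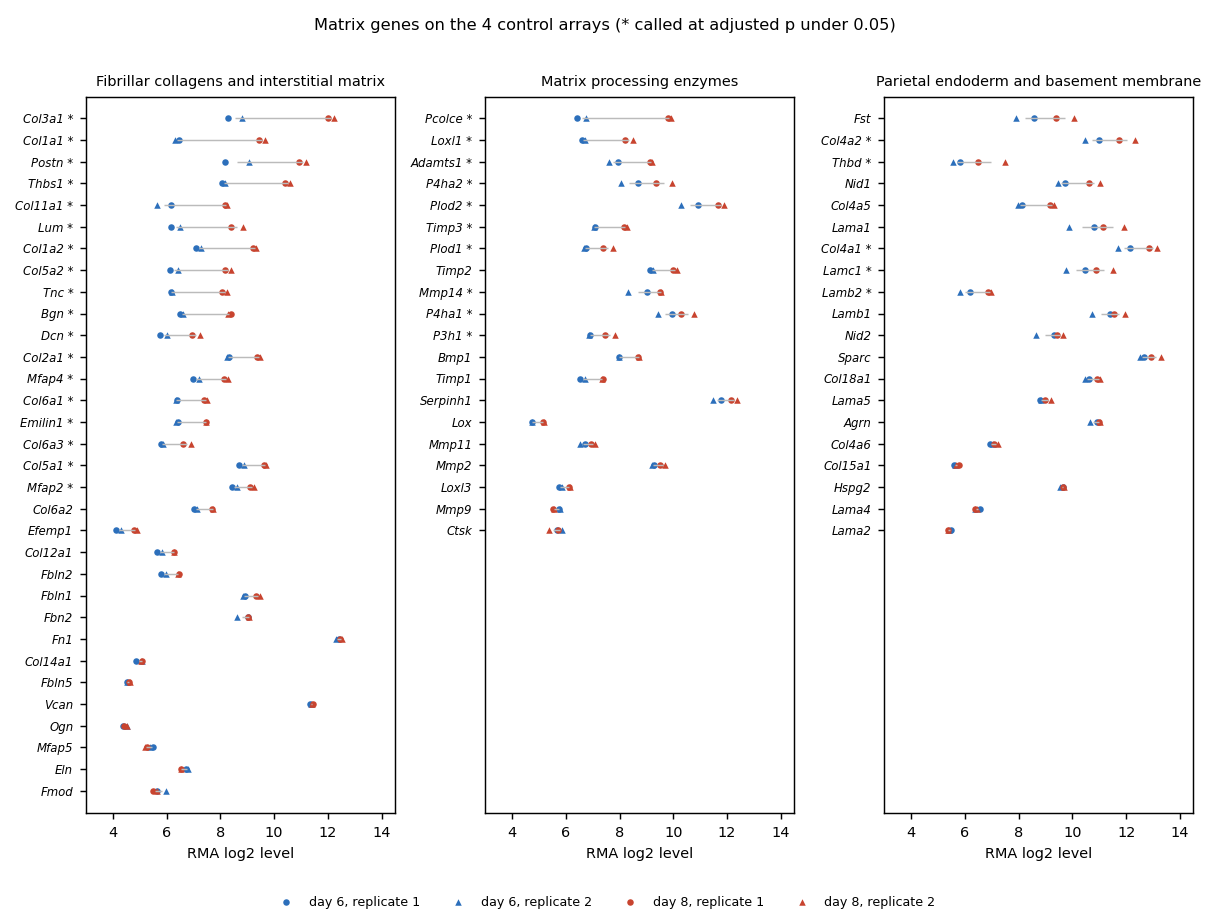
RMA log2 levels (horizontal axis) of every measured member of 3 matrix lists on the 4 control arrays, with day 6 in blue, day 8 in red, circles for replicate 1, triangles for replicate 2, a grey line between the means of the days and an asterisk on called genes. The means of the days differ by over 3 units in Col3a1, Col1a1 and Pcolce, with red to the right, while in Col4a1 and Lamc1 the replicates of a day are spread and the days lie closer.

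Of 20 measured regulators and surface proteins of mesenchyme, 3 were called higher and 0 lower, and 0 to 1 were called without 1 array. Prrx1, a homeobox factor of mesenchyme, rose from 5.24 and 5.15 to 5.95 and 6.25 (1.87-fold, adjusted p = 0.00228), a call lost without day 8 replicate 2 (0.0703). Pdgfra, a receptor of early mesenchyme, read 10.28 and 9.86 and then 9.83 and 10.08, with probe sets of both signs. Pdgfc, a ligand of that receptor, was among the largest rises of all genes, from 6.44 and 6.73 to 9.46 and 9.58 (7.63-fold, adjusted p = 0.000238). Cartilage genes held 3 calls of 11, Col11a1, Col2a1 and Col9a2, all of them collagens. Col2a1 rose 2.18-fold from 8.34 and 8.26 to 9.38 and 9.46, and both it and Col9a2 (1.69-fold) lost the call without replicate 2 of either day (adjusted p 0.0703 and 0.0813, and 0.0619 and 0.0898).

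Of 13 smooth muscle genes, 3 were called higher. Actg2, enteric smooth muscle actin, went from 5.22 and 5.18 to 6.82 and 7.01 (3.27-fold, adjusted p = 1.27e-05). Myl9, a regulatory light chain of smooth muscle myosin, went from 8.70 and 9.30 to 10.67 and 10.60 (3.12-fold), a call lost without day 6 replicate 1 (adjusted p = 0.0617). Myocd, the coactivator of serum response factor in heart and smooth muscle, read 9.74 and 9.58 and then 9.29 and 8.93 (adjusted p = 0.116), and its probe sets differed in sign. Of 10 epicardial genes, 2 were called. Sema3d, a guidance ligand of the proepicardium, rose from 4.30 and 4.21 to 6.37 and 6.55 (4.60-fold, adjusted p = 0.000354). Wt1, the defining factor of epicardium, rose by 0.78 to 5.16 and 5.02, which is under the median of all values. Its call was lost without any 1 of the 4 arrays (adjusted p 0.0821 to 0.223).

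Of 24 endothelial genes, 0 were called higher and 1 lower, with a median of 0.05. The gene called was Etv2, the transient inducer of blood vessels and blood, at 7.40 and 7.31 and then 6.39 and 6.47 (adjusted p = 0.0451, and 0.171 to 0.206 without any 1 of the 4 arrays). Among markers of formed endothelium, Sox18, Tek and Esam had the smallest differences of the well-expressed members, at 0.02, -0.04 and 0.06, while Cldn5, Vwf, Pecam1 and Emcn differed by 0.99, 0.61, 0.52 and 0.48 without being called (adjusted p 0.0848 to 0.446). Among 17 erythroid and blood progenitor genes, 0 were called higher and 2 lower. Car2, carbonic anhydrase 2 of red cells, fell 2.15-fold from 10.59 and 10.78 to 9.66 and 9.49 (adjusted p = 0.00092). Tal1, a master regulator of blood, fell 2.08-fold to 5.92 and 5.90, with the call lost without replicate 2 of either day (adjusted p 0.0656 and 0.072). Hba-x, an embryonic globin, read 8.77 and 10.73 on the day 6 arrays and 9.53 and 8.93 on those of day 8, so the replicates of day 6 stood farther apart than the days. The embryonic globins Hbb-y and Hbb-bh1 differed by 2.03 and -1.70, each with an SE of 1.22, and were not called. Of 8 megakaryocyte and platelet genes, 2 were called higher. They were Ppbp, a platelet chemokine, at 4.15 and 4.56 and then 5.18 and 5.03, and Itgb3, a platelet integrin, at 5.49 and 5.50 and then 6.15 and 6.08 (adjusted p = 0.0444 and 0.0411), and both calls were lost without any 1 of the 4 arrays (0.0717 to 0.291 and 0.161 to 0.195). Pf4 and Clec1b, also of platelets, differed by 1.05 and 0.88 and were not called. These 4 named genes were the only ones of the 8 that differed in the positive direction, and the median was 0.22. The 13 leukocyte markers (summed level 9.28 to 9.58 on the 4 arrays) and the 8 skeletal muscle markers (8.25 to 8.42) held 0 calls, and the muscle determination factor Myod1 read 5.34 to 5.72, about the array median. The part of such cells in the changes above was not tested.

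The Sox17 hairpin's target and the genes of the series title were read in the control arm. Sox17 read 9.83 and 9.35 and then 9.91 and 10.29 (difference 0.51, SE 0.80, adjusted p = 0.729). Hhex, a homeobox factor of anterior endoderm, read 8.31 and 7.91 and then 7.17 and 7.16 (adjusted p = 0.207). Cer1, which encodes the secreted inhibitor Cerberus, read 5.00 and 4.99 and then 4.38 and 4.28 (adjusted p = 0.516). Hhex and Cer1 read lower on both day 8 arrays but did not pass the threshold. Under Sox17 shRNA, Sox17 read 8.60 and 9.39 on the day 6 arrays and 7.90 and 8.54 on those of day 8. The 18 endoderm epithelium genes measured had 0 calls, with a median of -0.59, 4 positive members and 0 calls without any 1 of the 4 arrays. Krt8 and Cldn6, epithelial keratin and claudin, and Foxa2 had the smallest differences of the well-expressed members, at -0.02, 0.03 and -0.04. Of 20 yolk sac and visceral endoderm genes, beside 5.65% called higher over all genes, 1 was called. It was Afp, alpha-fetoprotein, which rose from 6.07 and 6.80 to 8.59 and 8.06 (3.72-fold, adjusted p = 0.0201), and the call was lost without day 6 replicate 1 (0.173), day 8 replicate 1 (0.157) and day 8 replicate 2 (0.0791).

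The largest called difference between RMA values was that of Zic1, a zinc finger factor of the neural plate and paraxial mesoderm, from 3.81 and 3.91 at day 6 to 8.22 and 7.77 at day 8 (17.5-fold, SE 0.77, adjusted p = 0.00268). Lhx2, a LIM homeobox factor of the forebrain and eye, rose from 4.53 and 4.66 to 6.41 and 6.62 (3.78-fold, adjusted p = 0.000147). Of 19 neural genes measured, 4 were called higher and 0 lower, the others being Six3 and Ncam1. Their calls were lost without both day 6 arrays in turn and without day 8 replicate 2 (adjusted p 0.0897 to 0.19 for Six3, and 0.112 to 0.268 for Ncam1, which was also lost without day 8 replicate 1 and has probe sets from 0.11 to 0.61). Nes, the filament of neural progenitors, and Otx2, a forebrain factor, differed by 0.55 and -0.40 and were not called. Of 11 surface ectoderm genes, 2 were called higher and 1 lower, beside 5.65% and 2.68% over all genes. Trp63, the p63 factor of basal epithelium, rose from 4.14 and 4.13 to 5.04 and 5.36 (2.09-fold, adjusted p = 0.000454), while Grhl2, a factor of simple epithelium, fell from 7.47 and 7.67 to 6.65 and 6.71 (1.86-fold, adjusted p = 0.00226), with 4 probe sets from -0.89 to -0.20.

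The other leading rises were Tgfbi, a matrix protein induced by Tgf-beta, from 7.05 and 7.11 to 9.95 and 10.12 (7.79-fold, adjusted p = 2.33e-06), and Tecrl, a protein of the endoplasmic reticulum whose loss in humans gives arrhythmia, from 4.64 and 4.59 to 7.80 and 7.20 (7.37-fold, adjusted p = 6.11e-09). Nr2f1, a nuclear receptor found in atrial muscle and neural tissue, rose 6.31-fold (adjusted p = 0.0027, and 0.0513 without day 6 replicate 2). Shisa3, an inhibitor of Wnt and Fgf receptor maturation, rose from 3.95 and 3.92 to 6.28 and 6.59, and Vnn1, a pantetheinase, from 6.00 and 6.02 to 8.40 and 8.50.

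The largest fall was that of Apela, a peptide ligand also known as Elabela, from 9.96 and 9.90 at day 6 to 7.05 and 6.68 at day 8 (8.38-fold lower, SE 0.24, adjusted p = 3.14e-07). Its receptor, Aplnr, which marks early mesoderm, fell from 10.84 and 10.41 to 8.74 and 8.86 (3.53-fold lower, adjusted p = 0.0098), while its other probe set differed by -0.90. Eras, a Ras protein of embryonic stem cells, fell from 7.34 and 7.62 to 5.53 and 5.14 (4.43-fold), and Pyy, the hormone peptide YY, from 7.66 and 7.56 to 5.43 and 5.39 (4.59-fold, adjusted p = 2e-06). Car4, a membrane carbonic anhydrase, fell 3.20-fold from 10.87 and 10.89 to 9.44 and 8.97, and Greb1l 2.91-fold from 10.20 and 9.98 to 8.54 and 8.56. Phlda2, an imprinted gene that restrains placental growth, fell 4.71-fold from 9.69 and 9.85 to 7.61 and 7.46. Cfc1, a co-receptor of Nodal, fell 3.26-fold and Fgf5, a growth factor of the primed epiblast, 3.02-fold (-1.60, and -0.46 on its other probe set). The call on Aplnr was lost without day 6 replicate 1 and either day 8 array (adjusted p 0.0734 to 0.0995), those on Phlda2 and Fgf5 without replicate 2 of either day (0.0824 and 0.0917, and 0.113 and 0.148), and that on Cfc1 without day 8 replicate 2 (0.072). Tdo2, tryptophan dioxygenase, went from 8.28 and 8.29 to 5.70 and 6.04 (5.35-fold, adjusted p = 0.022), and its other probe set differed by -0.82, with the call lost without any 1 of the 4 arrays (0.106 to 0.136).

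Of 17 primitive streak and early mesoderm genes, 12 were called lower from day 4 to day 6, beside 14.8% over all genes. Aplnr was the 1 called lower from day 6 to day 8, beside 2.68% over all genes. Mixl1, Eomes and Mesp1 read 5.05 to 5.78, 6.43 to 7.10 and 5.94 to 6.23 on the 4 arrays, and the probe sets of Eomes differed in sign. Of 25 pluripotency genes, 2 were called lower and 0 higher, beside 2.68% and 5.65% over all genes. The 2 were Trim71, from 9.36 and 8.97 to 8.23 and 7.95, and Dppa4, from 6.72 and 6.59 to 5.96 and 5.43. Trim71 lost its call without day 6 replicate 1 (adjusted p = 0.114) and day 8 replicate 2 (0.135), and Dppa4 without any 1 of the 4 arrays (0.0673 to 0.406). Sall4, Utf1 and Tdgf1 were not called, at differences of -0.49, -0.35 and -0.55.

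**Figure D4:**
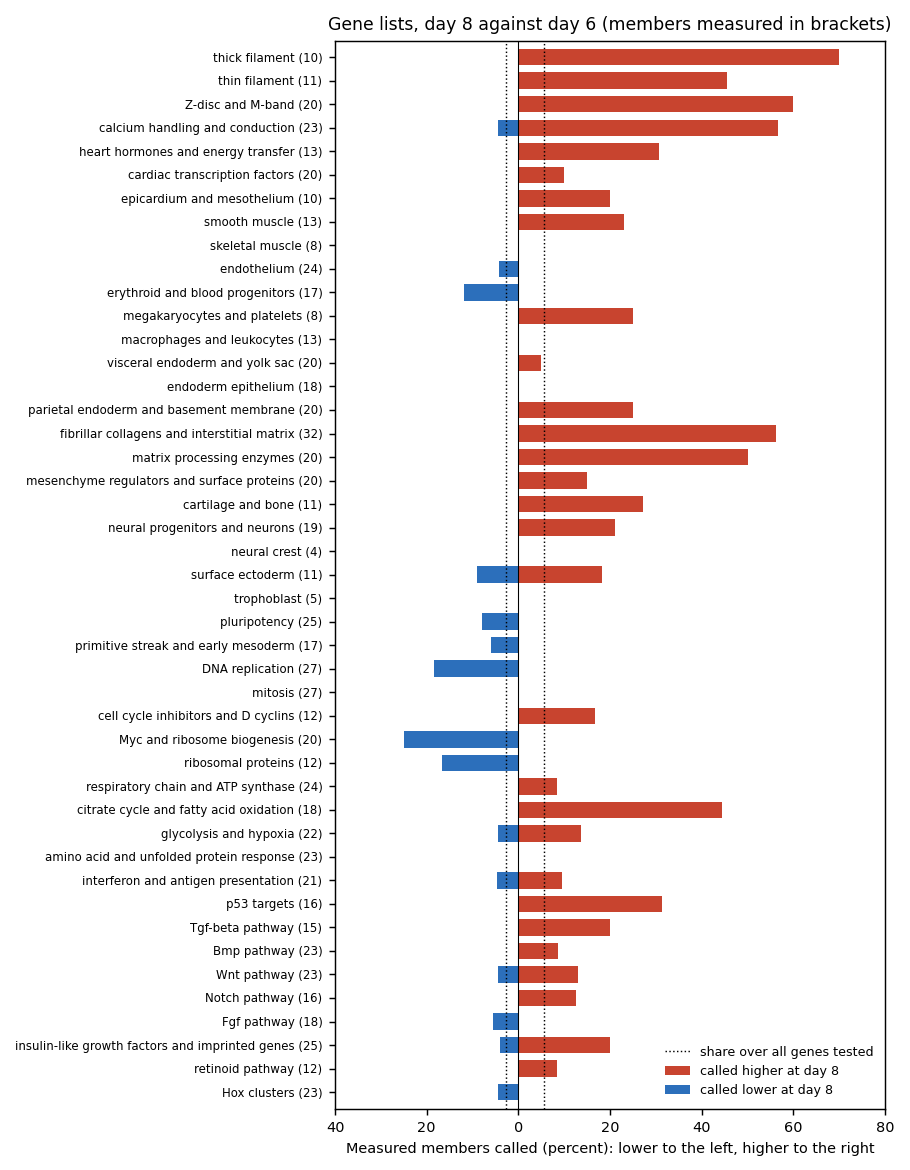
Share of the measured members of each of 45 gene lists called higher (red, to the right) or lower (blue, to the left) at day 8 against day 6, in percent, with the number measured in brackets and dotted lines at the shares over all genes (5.65% and 2.68%). The sarcomere, calcium, matrix and fatty acid oxidation lists reach farthest to the right, and the ribosome biogenesis and DNA replication lists farthest to the left.

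Of 27 DNA replication genes measured, 5 were called lower and 0 higher, with a median of -0.33. Mcm4, part of the replicative helicase, went from 11.24 and 11.08 to 10.68 and 10.56 (adjusted p = 0.0124). Pcna, the sliding clamp, read 12.56 and 12.51 and then 12.13 and 12.24 (adjusted p = 0.0342). The largest of the 5 falls, that of the helicase subunit Mcm5, was 1.58-fold, with probe sets from -0.66 to -0.02, and was lost without any 1 of the 4 arrays (0.113 to 0.202). Between 0 and 2 calls were left when 1 array was omitted, with Pcna lost each time (0.111 to 0.221) and Mcm4 without day 6 replicate 1 (0.122) and day 8 replicate 2 (0.149). The 27 mitosis genes held 0 calls and a median of -0.27, and 2 of them differed in the positive direction. When arrays were centred on their medians over the genes tested, 2 mitosis genes and 7 replication genes were called lower. Cell cycle inhibitors and D cyclins lay on the other side, with 12 of 12 measured positive and a median of 0.43, against -0.02 over all genes. Of the 12, 2 were called higher, beside 5.65% over all genes. Cdkn1a, the p21 inhibitor of cyclin-dependent kinases, rose from 9.40 and 9.69 to 10.79 and 10.92 (2.48-fold, adjusted p = 0.00114), and Rb1, the retinoblastoma protein, by 0.78 (adjusted p = 0.0175, and 0.0504 to 0.169 without any 1 of the 4 arrays).

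Cdkn1a is also a target of p53, a list in which 16 of 16 measured genes differed in the positive direction. Their median was 0.54, against -0.02 over all genes, and 5 were called higher, beside 5.65% over all genes. Ei24 rose from 9.63 and 9.55 to 10.30 and 10.32 (1.65-fold, adjusted p = 0.000451), and Eda2r and Phlda3, a death receptor and an inhibitor of Akt, rose 2.11-fold and 2.03-fold (adjusted p = 0.013 and 0.00891). Cdkn1a and Ei24 were called without any 1 of the 4 arrays. Eda2r lost its call in each of those fits (0.0564 to 0.135), and Phlda3 kept it without day 8 replicate 1 and lost it in the others (0.0556 to 0.109).

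Of 20 ribosome biogenesis genes measured, 5 were called lower and 0 higher, with a median of -0.22 and 4 positive members, and 1 to 3 were called lower without 1 array. Nhp2, a protein of the particles that modify ribosomal RNA, fell from 11.36 and 11.53 to 10.88 and 10.79 (1.52-fold, adjusted p = 0.00169), and Dkc1, the pseudouridine synthase of the same particles, from 10.46 and 10.10 to 9.60 and 9.53 (1.64-fold, adjusted p = 0.0021, with 3 probe sets from -0.72 to -0.28). Dkc1 missed the threshold without day 6 replicate 1 (0.0517). Myc itself read 7.93 and 7.49 and then 7.66 and 7.90 and overlapped between days. Of 12 ribosomal protein genes, Rps9 and Rplp0 were called lower, at differences of -0.27 and -0.13, and lost the call without any 1 of the 4 arrays (0.0596 to 0.148 and 0.131 to 0.295).

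Of 18 fatty acid oxidation and citrate cycle genes measured, 8 were called higher and 0 lower, with a median of 0.45. Cpt1a, which admits long-chain fatty acids to mitochondria, went from 5.30 and 5.05 to 6.43 and 6.61 (2.54-fold, adjusted p = 0.00203). Hadhb and Hadha, the subunits of the trifunctional enzyme of beta-oxidation, went from 9.33 and 9.25 to 10.22 and 10.15 (1.86-fold) and from 8.05 and 8.20 to 8.90 and 8.99 (1.76-fold). Pdk4, the kinase that shuts pyruvate dehydrogenase, rose 2.08-fold to 5.02 and 5.09. All 4 were called without any 1 of the 4 arrays, and the list then held 4 to 5 calls. Respiratory chain genes differed little, with a median of 0.01 and 2 of 24 called higher, beside 5.65% over all genes. Sdha read 10.53 to 10.57 on the 4 arrays. Of 22 glycolysis and hypoxia genes, 3 were called higher and 1 lower. Hk1, hexokinase 1, rose from 7.45 and 7.16 to 9.01 and 8.83 (3.07-fold, adjusted p = 0.000288), while Hk2 read 9.99 and 9.73 and then 9.90 and 9.92.

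Of 23 Wnt pathway genes, 3 were called higher and 1 lower. The secreted antagonist Dkk2 went from 3.62 and 3.70 to 5.68 and 5.98 (4.50-fold, adjusted p = 0.00032) and the antagonist Sfrp2 from 6.00 and 5.59 to 7.37 and 7.41 (3.02-fold, adjusted p = 0.000611). Both were called without any 1 of the 4 arrays. Dkk1, another secreted antagonist, read 8.04 and 7.87 and then 8.05 and 8.23 and was not called (adjusted p = 0.828). Of 15 Tgf-beta genes, 3 were called higher, the target Tgfbi, the ligand Tgfb3 (1.63-fold) and the receptor Tgfbr2 (1.56-fold). Tgfb3 lost its call without day 6 replicate 1 and either day 8 array (adjusted p 0.0807 to 0.16), and Tgfbr2 without any 1 of the 4 (0.0508 to 0.202). Bmp genes had 2 of 23 called higher, Notch genes 2 of 16, and Fgf genes 0 of 18, with Fgf5 lower. Over all genes tested, 5.65% were called higher and 2.68% lower.

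The interval was set beside the step before it, from day 4 to day 6, which shares the day 6 arrays, by a test of the difference between the steps. In the earlier step 1789 genes were higher (13.5%) and 1967 lower (14.8%), and the difference between the steps was called for 673 genes (5.06%). Tnnt2 had risen by 7.42 before day 6 and rose by 0.58 after it, a difference between the steps of -6.84 (SE 0.28, adjusted p = 7.11e-11). Actc1 rose by 6.09 and then 0.97 (difference -5.12, adjusted p = 6.4e-08), and Myl4 by 6.31 and then 0.99. Tnni3 ran the other way, with -0.46 (not called) in the earlier step and 2.88 in the later one (difference 3.33, SE 0.46, adjusted p = 0.000241). Pcolce likewise differed by -0.05 and then 3.27 (difference 3.31, adjusted p = 3.86e-05). Oxct1, the enzyme that lets cells use ketone bodies, fell by 2.29 and then rose by 1.67 (difference 3.96, adjusted p = 2.26e-06). Mixl1, Eomes and Mesp1, factors of the primitive streak, were called lower before day 6, at differences of -4.94, -3.68 and -3.90, and differed by 0.43, 0.29 and -0.11 after it. Cardiac transcription factors had 14 of 20 called higher in the earlier step and 2 in the later, and 6 of the 20 were called for a more negative and 2 for a more positive change in the later step. Endothelial genes had 17 of 24 called higher earlier and 0 later, with 8 called for a more negative change. In fatty acid oxidation and the citrate cycle, 0 were higher and 7 lower earlier, and 6 of 18 were called for a more positive change later. On day 4 replicate 1 the bioB spike-in read 9.27, against 6.56 to 7.13 on the day 6 and day 8 arrays and 6.89 on day 4 replicate 2, and its part in the difference was not tested. Each gene named here was called without any 1 of the 6 arrays, but the count of 673 fell to 150 without day 6 replicate 1, 237 without day 6 replicate 2, 439 without day 8 replicate 1 and 377 without day 8 replicate 2.

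In the following step, from day 8 to day 10, which shares the day 8 arrays, 35 genes were higher (0.263%) and 12 lower (0.0902%). The difference between the steps was called for 75 genes (0.564%). Tecrl rose by 2.88 and then differed by -0.52 (difference 3.40, SE 0.27, adjusted p = 3.37e-06), and Myom1 rose by 1.93 and then differed by -0.71 (difference 2.65, adjusted p = 5.71e-05). Both calls held without any 1 of the 6 arrays. Actn2, at 2.41 and then -0.14, lost the call of the difference without day 8 replicate 1 (0.0604), as did Cacna2d2, an accessory calcium channel subunit, at 2.41 and then -0.45 (0.172). Tnni3 rose by 2.88 and then differed by 0.14, a difference of 2.73 (adjusted p = 0.00676) that was lost without either day 8 array (0.246 and 0.0724). Apela fell by 3.07 and then differed by -0.10 (difference -2.97, adjusted p = 0.00105, and 0.0814 without day 8 replicate 2). Of the 32 interstitial matrix genes, 4 were still called higher from day 8 to day 10. The count of 75 fell to 11 without day 8 replicate 1 and 19 without day 8 replicate 2, arrays on which both steps rest, to 47 without day 6 replicate 2 and to 39 and 45 without either day 10 array.

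**Figure D5:**
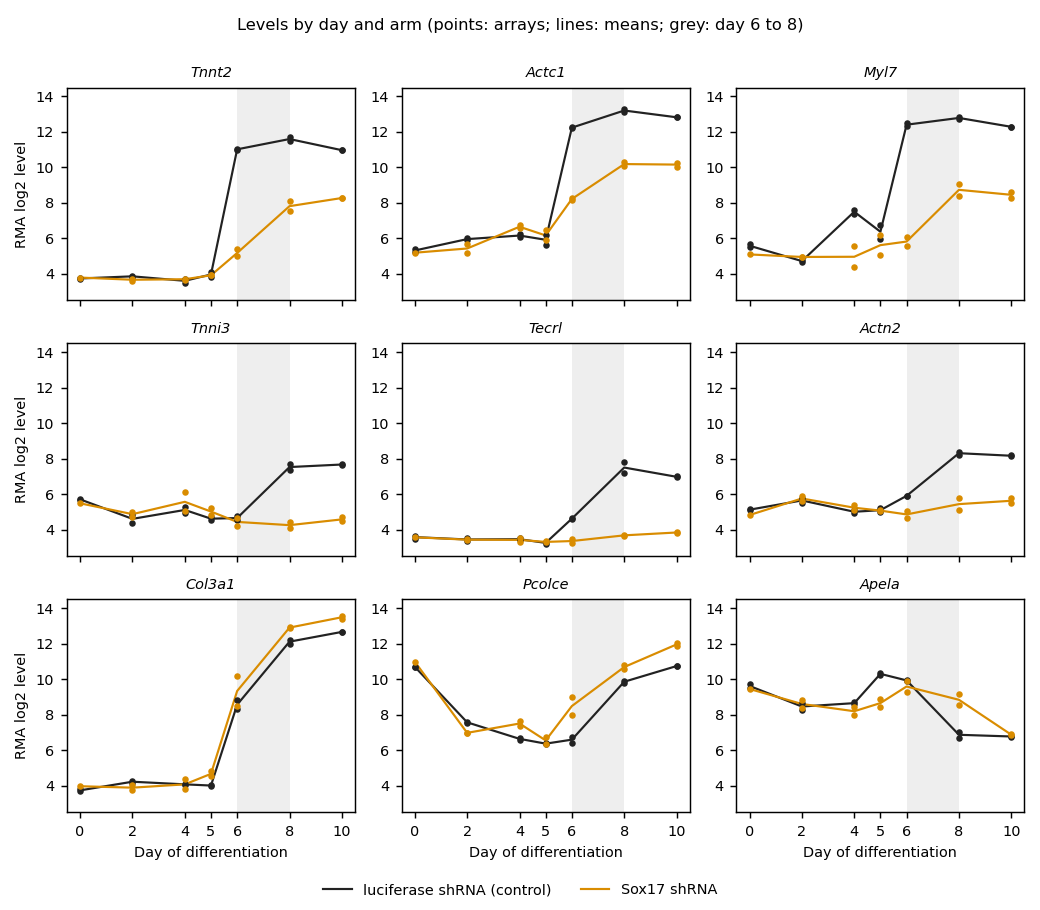
RMA log2 levels of 9 genes (vertical axis) by day of differentiation (horizontal axis) in the control arm (black) and the Sox17 shRNA arm (orange), with points for arrays, lines through group means and grey over the interval from day 6 to day 8. Tnnt2, Actc1 and Myl7 rise before the interval in the control arm, Tnni3, Tecrl and Actn2 rise by over 2 units within it in the control arm, and Col3a1 and Pcolce rise in both arms.

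The same interval in the Sox17 shRNA arm, on 2 arrays of each day that share no array with the control, gave 788 genes higher (5.93%) and 883 lower (6.64%). The step differed between the arms for 51 genes (0.384%), 29 with a more positive change in the control and 22 with a more negative one. Tnni3 rose by 2.88 in the control and read 4.66 and 4.22 on the day 6 arrays and 4.42 and 4.08 on those of day 8 under Sox17 shRNA, so that the steps differed by 3.06 (SE 0.38, adjusted p = 0.000446). Tecrl read 3.45 and 3.27 and then 3.69 and 3.66 in that arm, a difference between the steps of 2.56 (adjusted p = 1.24e-05). Srl (difference 2.06, adjusted p = 8.56e-05), Cacna2d2 (2.49, adjusted p = 0.00174) and Actn2 (1.82, adjusted p = 0.00271) showed the same order. These 5 calls held without any 1 of the 8 arrays. Some heart genes that were already high in the control at day 6 ran the opposite way. Tnnt2 rose from 4.97 and 5.37 to 8.08 and 7.54 under Sox17 shRNA, a larger step than the control's by 2.06 (adjusted p = 0.000191), and stayed lower than in the control on both days. Myl7 rose from 5.54 and 6.09 to 9.08 and 8.38 in that arm, a difference of -2.54 (adjusted p = 0.0376) that was lost without 6 of the 8 arrays (0.133 to 0.205). Apela fell by 0.75 in that arm, from 9.28 and 9.89 to 9.15 and 8.52, against 3.07 in the control (difference -2.32, adjusted p = 0.00177).

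Over the lists, 6 calcium handling genes were called for a more positive step in the control and 0 for a more negative one, and Z-disc genes gave 3 and 0, thin filament genes 1 and 1, and thick filament genes 0 and 2. For the 32 interstitial matrix genes the difference between the arms was called for 1, Bgn, the proteoglycan biglycan, which rose by 1.78 in the control and differed by -0.05 under Sox17 shRNA (difference 1.83, adjusted p = 0.00122). Within each arm 18 of the 32 were called higher, and Col3a1 rose by 3.55 and 3.58 (difference -0.02, SE 0.46). For the 20 matrix enzymes the difference was called for 0. The SD of the difference between replicates at days 6 and 8 was 0.360 and 0.365 in the Sox17 shRNA arm and 0.185 and 0.137 in the control arm. The count of 51 fell to 22 without control day 6 replicate 1, 30 without control day 6 replicate 2, 29 without control day 8 replicate 1 and 30 without control day 8 replicate 2.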

How the data were processed

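RNA of 27 samples was measured on Affymetrix arrays, with 45101 probe sets each. The deposited log2 values were made by the authors with RMA, per the submitters' processing notes, and ranged from 2.66 to 14.5. RMA fits all arrays together and equalises their distributions, so a change shared by most genes cannot be seen. Probe sets were named from the platform annotation: 34958 had 1 gene symbol, 932 had several and 9211 were not listed, and only the first kind was used. Probe sets that exceeded 5.53, the overall median, on 2 or more arrays were kept (23536), and each gene took the kept probe set with the highest mean, which left 13297 genes. Arrays give no read depth, and the number of arrays limits the precision.

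A mean per group of arm and day (14 groups, 13 residual degrees of freedom) was fitted with limma 3.58.1 in R 4.3.3, with eBayes and an intensity trend. Tests were two-sided, adjusted by Benjamini-Hochberg over all 13297 genes and called under 0.05. Differences between steps were contrasts of the same fit. Standard errors are on the log2 scale. Nothing beyond the label of biological replicates says how cultures were separated, so p-values measure the spread between these samples. Replicate numbers were not used as a block, since deviations of same-numbered arrays at days 6 and 8 correlated at r = -0.136.

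The members and the 45 gene lists were chosen with earlier results of these data known. Named genes were the 15 largest called rises and 15 largest called falls without overlap, up to 5 called rises, 5 called falls and 3 smallest differences of genes above the median level per list, 8 genes of each sign per difference between steps, marker genes by level, and Sox17, Hhex and Cer1. Alternatives changed the filter, the probe set rule, the arrays fitted, the variance model, the centring, a replicate block, a bioB covariate, the call rule and each array in turn. The fit was tested on simulated data. Promoters came from RefSeq (GRCm38.p6), and the arrays of the Sox17 shRNA arm entered every test through the shared estimate of the spread.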

Additional observations from a re-analysis of the deposited data

Results flagged for a closer look

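The change from day 6 to day 8 differed between the control arm and the Sox17 shRNA arm for 51 of 13297 genes (0.384%). The test was the limma contrast of the steps, with p-values adjusted by Benjamini-Hochberg over all of these genes. Of the genes called, 30 are given here, chosen because they led this contrast or were called members of a list, so all 30 are called by selection. Each value is the control step minus the Sox17 shRNA step on the log2 scale. Among genes of the sarcomere, the difference was 3.06 for Tnni3, 1.82 for Actn2, 1.82 for Csrp3 and 1.41 for Smpx, and it was -2.54 for Myl7, -2.06 for Tnnt2 and -1.57 for Myl4. Among genes of calcium handling and conduction, it was 2.06 for Srl, 1.66 for Pln, 1.30 for Cacna1h, 1.27 for Casq1, 1.24 for the exchanger Slc8a1 and 1.05 for Kcnj5, a subunit of an atrial potassium channel. Related genes were Tecrl at 2.56, Cacna2d2 at 2.49 and the hormone Nppa at 1.48.

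Among transcription regulators, the difference was 2.03 for Foxd1, 1.89 for Cited1 and 1.48 for Shox2, and it was -2.08 for Mef2c, -1.42 for Myocd and -1.77 for Rarb, a retinoic acid receptor. Among secreted and matrix proteins, it was 2.13 for Igfbp1, 1.83 for Bgn, -2.68 for Rbp4, the carrier of retinol, -2.32 for Apela, -2.02 for Pyy, -1.80 for Nepn and -1.72 for Dlk1. The remaining gene, Tent5c, differed by -2.09. Of these 30 calls, 14 held without any 1 of the 8 arrays of the comparison, namely those on Tnni3, Tecrl, Cacna2d2, Igfbp1, Srl, Foxd1, Bgn, Actn2, Smpx, Shox2, Apela, Tent5c, Tnnt2 and Pyy.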

How the results depend on the processing

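The number of genes called between day 6 and day 8, 1107, was 977 to 1634 over other filters, probe set rules, variance models, centring, blocks and the bioB covariate. It rose to 2774 (1736 higher and 1038 lower) with the control arm fitted alone and 4505 (2487 and 2018) with the 4 arrays alone, and all 1107 genes were among both. Requiring a 2-fold change left 277. The lower calls rose from 356 to 753 with arrays centred on their medians over the genes tested and to 621 with the bioB covariate. Leaving out 1 array gave 262 to 472 calls, 213 to 381 higher and 49 to 95 lower. The step differed between the arms for 32 genes under the stricter filter, and for 22 to 66 without 1 array, in place of 51. With the control arm alone, the step differed from the earlier step for 2199 genes and from the later step for 650, in place of 673 and 75, and without 1 array for 150 to 730 and 11 to 53. The causes of these shifts were not tested, apart from the fewer arrays that leaving one out implies.

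Of 138 named genes called, 0 reversed under any alternative, 110 stayed called in every alternative that kept all 4 arrays, and 59 without any 1 of them. Of 484 list counts under the alternatives that kept all 4 arrays, 361 were within 1.5 times their value and 94 were more than 1.5 times it. With a replicate block 1467 genes were called, and with the numbers of the control day 8 arrays alone crossed 1475, an alternative chosen after seeing the data. Deviations of same-numbered control arrays correlated at -0.23 to 0.18 over 21 pairs of days. Whether the replicate numbers mark a shared culture cannot be told from these values. Low levels near the array median, such as those of Wt1 and Myod1, limit what differences can be measured.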

Other observations

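Of 25 growth factor binding and imprinted genes measured, 5 were called higher and 1 lower, beside 5.65% and 2.68% over all genes. Igfbp1, a binding protein of insulin-like growth factors made by liver and decidua, went from 4.00 and 3.99 to 6.31 and 5.99 (4.44-fold, limma adjusted p = 1.2e-05), and it rose by a further 3.38 to day 10, from a day 6 level under the median of all values. Dlk1, an imprinted transmembrane protein of embryonic mesoderm, went from 9.96 and 9.69 to 10.99 and 11.07 (2.31-fold), and Igf2r, the receptor that clears Igf2, from 10.20 and 10.10 to 11.43 and 11.20 (2.25-fold). A 2nd probe set differed by 0.18 for Dlk1 and 0.38 for Igf2r. These 3 were called without any 1 of the 4 arrays.

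Of 21 interferon and antigen presentation genes, 2 were called higher and 1 lower, beside 5.65% and 2.68% over all genes. Ifitm1, a membrane protein of early embryonic cells, fell 2.53-fold from 10.08 and 10.14 to 8.81 and 8.73 (adjusted p = 6.2e-05). B2m, the light chain of class I antigen-presenting molecules, went from 10.55 and 10.54 to 11.19 and 11.22 (1.58-fold, adjusted p = 0.00404), a call lost without day 8 replicate 2 (0.059). Of 23 Hox genes, Hoxb6 was the 1 called, falling 2.16-fold from 5.59 and 5.66 to 4.50 and 4.53 (adjusted p = 0.000148).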
